A study of Homo sapiens with 4 samples.

Results

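The genes described here encode the core of the RNA interference machinery: DROSHA and DGCR8, DICER1, the Argonaute genes AGO1 to AGO4, and the TNRC6 genes TNRC6A, TNRC6B and TNRC6C. They were chosen by name, and a probe set, the group of short probes by which the array measures a transcript, was taken when its only gene symbol in the platform annotation was one of these. Each of the 10 genes had 1 such probe set, so the subject here is 10 of the 18404 genes with such a probe set (19158 probe sets of the 32321 on the array). The selection was stated on the control level and on the difference between the groups, so both are given as descriptions with no test. The cells were U87MG, an established human glioblastoma line, transfected with an siRNA against CASP2, the gene of caspase-2, on 2 arrays, or with a control siRNA on 2 arrays, and both pairs are labelled as biological replicates. Nothing in the labels says that these were separate cultures, so the spread given here is that between arrays and may be partly technical. All 4 arrays came from cells that had received an siRNA, and no untransfected arrays were analysed here. The difference between the groups is therefore one between 2 siRNAs, and the effect of transfection itself cannot be told apart from the state of the cells. The labels name Dharmacon as supplier of the oligos, whose control is described in the methods as a mutated form of the CASP2 oligo, and they do not say how long after transfection the RNA was taken.

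RNA interference uses small RNAs to guide a protein to matching messenger RNAs. MicroRNAs are cut from their primary transcripts in the nucleus by the Microprocessor, made of the RNase III enzyme Drosha and its RNA-binding partner DGCR8, and the resulting hairpins are exported and trimmed to short duplexes by Dicer. A transfected siRNA of mature length enters the pathway after these steps: it is loaded straight into an Argonaute protein, and in human cells AGO2 is the Argonaute known for efficient slicing of a fully matched target. The TNRC6 proteins, also called GW182 proteins, bind Argonautes and bring in the deadenylases and decapping factors that silence partly matched targets.

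Over all probe sets, the median log2 value was 6.18 and 6.28 on the CASP2 siRNA arrays and 6.21 on each control array. The standard deviation of the difference between replicates over all probe sets was 0.348 for the CASP2 siRNA and 0.205 for the control siRNA. CASP2 had a log2 value of 8.79 and 8.52 in cells with the CASP2 siRNA, against 10.74 and 10.69 with the control siRNA, a log2 difference of -2.06 (95% confidence interval -2.40 to -1.72, adjusted p = 0.9999 by limma). Its value was 4.17-fold lower with an unadjusted p of 4.0e-05 by limma, past the thresholds of the study, 1.5-fold and p below 0.05. By limma, 0 of the 32321 probe sets (0%) had a Benjamini-Hochberg adjusted p under 0.05, and without adjustment 979 had. Among the probe sets with 1 symbol, the shares without adjustment were 1.08% higher and 1.12% lower. Adding the fold threshold of the study, 1.5, left 0.331% of all probe sets higher and 0.362% lower. Of 6 measured markers of mesenchymal glioma lines, such as VIM and CD44, 6 lay above the median of every array, while 0 of 3 leukocyte and 0 of 3 epithelial markers did. Of 4 markers of the glial lineage GFAP alone did, with S100B below the lower quartile, and of 3 neuronal markers 2 did, SNAP25 and SYT1.

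All 10 RNA interference genes had a signal above the median of all probe sets on every array, and 9 of them above the median of the probe sets with 1 symbol, the exception being TNRC6C. DICER1 and TNRC6B stood highest relative to the control, with log2 differences of 0.40 and 0.33, and TNRC6A was the lowest at -0.11. In all, 7 genes had a difference above 0 and 3 below it, with a median of 0.048 (0.093 without CASP2 siRNA replicate 2 and 0.093 without control siRNA replicate 1), beside a median of -0.00076 over the probe sets with 1 gene symbol, of which 49.7% lay above 0. None of the 10 genes (0) passed the thresholds of the study, a 1.5-fold change with p below 0.05 before adjustment, beside 0.235% of the probe sets with 1 symbol (0.0992% higher and 0.136% lower). The 2 arrays with the CASP2 siRNA were both above the 2 with the control siRNA for 4 genes (DICER1, TNRC6B, AGO4 and AGO2) and below both for 1 (TNRC6A), where these shares were 14.6% and 16.3% over the probe sets with 1 symbol. These counts come from the contrast on which the selection was stated, and nothing is read from them. The threshold of 1.5-fold corresponds to a larger change than that of any of these genes, since the largest, that of DICER1, was 1.32-fold. In RNA pooled from a culture, a change of some cells and a smaller change of every cell cannot be told apart, nor can fewer cells of a type and less RNA per cell.

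**Figure D1:**
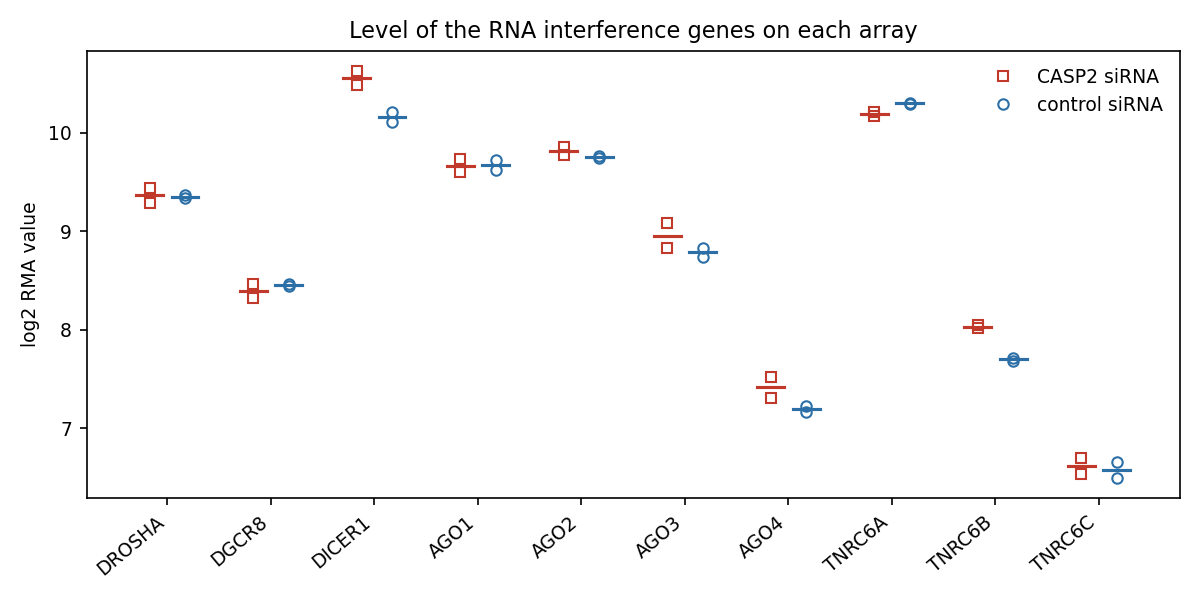
Log2 RMA value (y axis) of the 10 RNA interference genes (x axis) on each array, with CASP2 siRNA as squares and control siRNA as circles, and short lines for the group means of 2 arrays. For DICER1 and TNRC6B the squares lie clear above the circles (10.62 and 10.48 against 10.21 and 10.10 for DICER1), and for TNRC6A below them; levels of different genes depend on their probes and are not compared.

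The Microprocessor genes showed little difference between the groups. DROSHA, the nuclear RNase III, had log2 values of 9.44 and 9.29 with the CASP2 siRNA, against 9.34 and 9.36 with the control siRNA. The arrays with the CASP2 siRNA, called silenced below, lay on either side of the controls, and the difference was 0.013, or -0.0068 with arrays centred on their median. DGCR8, the partner that recognises the hairpin, had log2 values of 8.46 and 8.32 in silenced cells, against 8.47 and 8.44 in control cells. CASP2 siRNA replicate 1 lay between the control arrays and replicate 2 below them, and the difference was -0.064. The spread between the silenced arrays was 0.11 for DROSHA and 0.10 for DGCR8 (SD, n = 2 each), against 0.018 and 0.019 between the control arrays.

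DGCR8 is itself a target of the Microprocessor, which is known to cut hairpins in its messenger RNA and so to lower it. The RefSeq annotation (GRCh38.p14) places 2 microRNA genes within DGCR8 on the plus strand of chromosome 22, and their mature products are shown because they mark those hairpins. The seed, bases 2 to 8, is in capitals.
miR-3618 (chr22:20085797-20085818): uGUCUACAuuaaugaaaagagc
miR-1306-5p (chr22:20086072-20086093): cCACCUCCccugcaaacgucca
miR-1306-3p (chr22:20086112-20086129): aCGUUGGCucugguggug
These microRNAs have no probe set with a symbol of their own in the annotation used here, and the value of DGCR8 above is that of its whole probe set.

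DICER1, the cytoplasmic RNase III that trims microRNA hairpins, was the gene with the largest difference. Its log2 value was 10.62 and 10.48 in cells with the CASP2 siRNA, against 10.21 and 10.10 in cells with the control siRNA. The groups did not overlap, with 0.28 between the lower silenced and the higher control array. The mean was 10.55 ± 0.099 with the CASP2 siRNA and 10.15 ± 0.071 with the control siRNA (SD, n = 2 each), a log2 difference of 0.40 or 1.32-fold. Of the probe sets with 1 symbol, 99.5% had a lower difference and 98.8% a smaller one in size.

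MicroRNAs feed back on DICER1: let-7, and miR-103 with miR-107, are known to target its messenger RNA. Their mature sequences are shown, with seeds in capitals, to set the regulator beside the gene that makes it.
let-7a-5p: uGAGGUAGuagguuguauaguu
miR-103a-3p: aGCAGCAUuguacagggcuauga
miR-107: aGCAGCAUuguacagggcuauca
The last pair share 1 seed and differ by the substitution G22C, counted from the 5′ end with the base of miR-103a-3p first. RefSeq encodes let-7a-5p on chromosomes 9, 11 and 22, miR-103a-3p on chromosomes 5 and 20, and miR-107 on chromosome 10. Among their precursors, chosen after their values were seen, MIRLET7A2 had log2 values of 5.93 and 5.73 in silenced cells, against 6.11 and 6.18 in control cells (difference -0.32, 95% confidence interval -0.62 to -0.015, adjusted p = 0.9999 by limma). This signal lay below the median of every array. The groups overlapped for MIRLET7A1, MIR103A1, MIR103A2 and MIR107, whose differences ranged from -0.12 to 0.12. MIRLET7A3, the copy on chromosome 22, and the other let-7 genes were not looked up, so MIRLET7A2 does not stand for let-7. Mature microRNAs were not measured.
A further microRNA gene, MIR3173, lies within DICER1 on the same strand of chromosome 14, with products that have other seeds.
miR-3173-5p (chr14:95137961-95137982): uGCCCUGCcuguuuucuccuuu
miR-3173-3p (chr14:95137923-95137944): aAAGGAGGaaauaggcaggcca

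**Figure D2:**
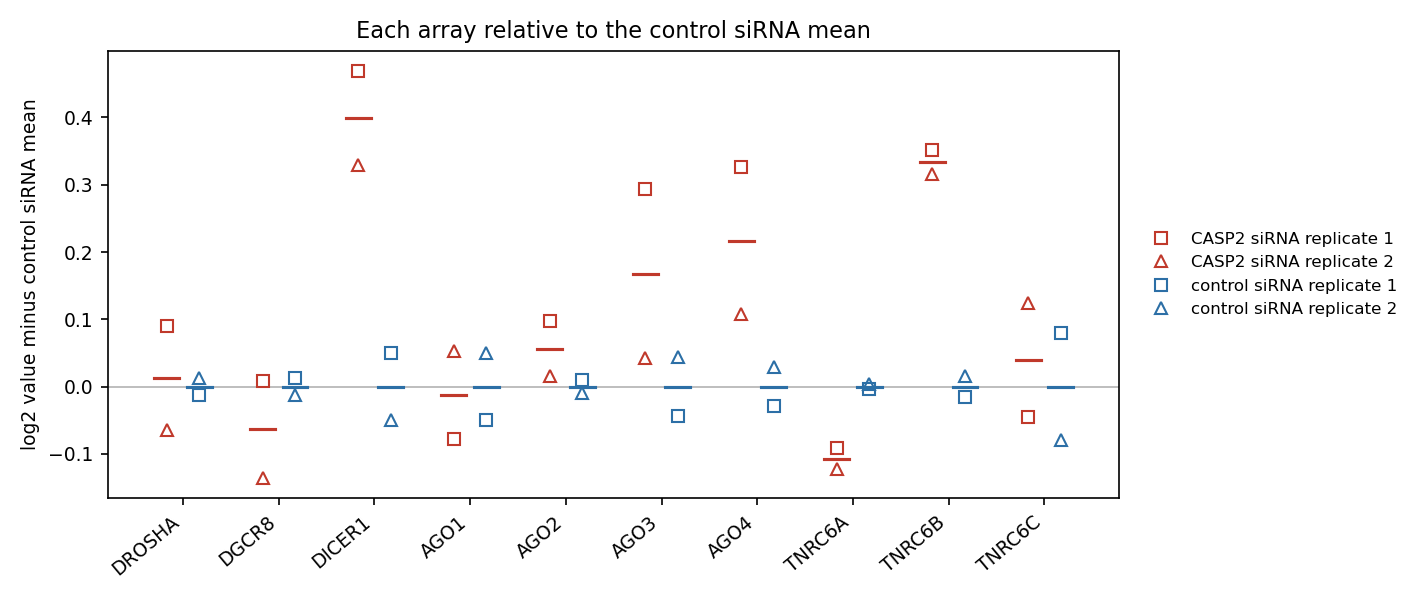
Deviation of each array from the control siRNA mean on the log2 scale (y axis) for the 10 genes (x axis), with replicate 1 as squares and replicate 2 as triangles, CASP2 siRNA in red left of control siRNA in blue, and short lines for the group means. CASP2 siRNA replicate 1 lies far above replicate 2 for AGO3 (0.29 and 0.042) and AGO4 (0.33 and 0.11), while both lie close together for TNRC6B (0.35 and 0.32).

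The differences of the Argonaute genes ranged from -0.012 to 0.22, with 3 of 4 above 0. AGO2, the slicing Argonaute through which an siRNA acts, had log2 values of 9.85 and 9.77 with the CASP2 siRNA, against 9.77 and 9.75 with the control siRNA. The silenced arrays lay above the controls by as little as 0.0058 and overlapped them with arrays centred on their median, and the difference was 0.056. AGO1, which is known for silencing guided by microRNAs, had 9.60 and 9.73 in silenced cells, against 9.63 and 9.72 in control cells. The groups overlapped and the difference was -0.012, or 0.0011 with quantile normalization and 0.0057 with arrays centred on the median of the probe sets with 1 symbol. AGO2 had a mean of 9.81 ± 0.057 with the CASP2 siRNA and 9.76 ± 0.014 with the control siRNA (SD, n = 2 each).

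AGO3 and AGO4, further Argonautes that bind the same small RNAs, had larger differences, which were widest on CASP2 siRNA replicate 1. AGO4 had log2 values of 7.53 and 7.31 with the CASP2 siRNA, against 7.17 and 7.23 with the control siRNA. The groups did not overlap, and the difference of 0.22 was 0.11 without CASP2 siRNA replicate 1 and 0.33 without replicate 2. AGO3 had 9.08 and 8.83 in silenced cells, against 8.74 and 8.83 in control cells. Here CASP2 siRNA replicate 2 lay between the control arrays, and the difference of 0.17 was 0.042 without replicate 1 and 0.29 without replicate 2. AGO3 and AGO4 had the widest spread between the silenced arrays of the 10 genes, 0.18 and 0.15 (SD, n = 2 each). The genes AGO4, AGO1 and AGO3 are neighbours in this order on chromosome 1 in RefSeq (GRCh38.p14), on the same strand. The gene in the middle, AGO1, had the difference nearest to 0 of the 3. Whether the probes of one Argonaute also read another was not tested.

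Of the TNRC6 genes, TNRC6B was higher and TNRC6A lower on both arrays with the CASP2 siRNA. TNRC6B had log2 values of 8.05 and 8.01 in cells with the CASP2 siRNA, against 7.68 and 7.71 in cells with the control siRNA. The lower of the silenced arrays was 0.30 above the higher control. The mean was 8.03 ± 0.026 with the CASP2 siRNA and 7.70 ± 0.022 with the control siRNA (SD, n = 2 each), a log2 difference of 0.33 or 1.26-fold, and 98.9% of the probe sets with 1 symbol had a lower one. TNRC6A, the founding GW182 gene, had 10.20 and 10.17 in silenced cells, against 10.29 and 10.30 in control cells. The silenced arrays were below the controls by at least 0.089, with a difference of -0.11 or 1.08-fold. TNRC6C had 6.54 and 6.70 with the CASP2 siRNA, against 6.66 and 6.50 with the control siRNA. The arrays of both groups interleaved and the difference was 0.039. The difference of TNRC6B was 0.35 with quantile normalization and 0.31 with each array centred on its median. That of TNRC6A was -0.089 and -0.13. With each array centred on the median of the probe sets with 1 symbol they were 0.35 and -0.090. These scalings move the differences little beside their size, so the kept signs add nothing.

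Annotated starts were compared to set the letters before those of TNRC6B and DICER1, highest relative to the control, beside those of the other members. RefSeq start windows (GRCh38.p14) were used for 9 of the 10 genes, all but AGO2, 16 windows in all. The 250 bases before each start were searched on both strands. Several of these starts lie inside the gene, among them those of the only windows of TNRC6A and AGO1 (genes from chr16:24610205 and chr1:35869761). The CCAAT box, searched as CCAAT or ATTGG, was found in 8 of the 16 windows, beside 32.0% of the 35116 windows of all genes. The GC box, searched as GGGCGG or CCGCCC, was found in 10 of them, beside 42.6% of all windows, and TATAAA or TTTATA in 0, beside 10.7%. TNRC6B held 5 CCAAT boxes, DGCR8 held 4, DROSHA 3, TNRC6A and AGO1 1 each, and AGO3 and AGO4 0. DICER1 has 5 windows with 0 or 1 CCAAT box each, and TNRC6C has 4 with 0 or 2. The DICER1 windows at chr14:95157903-95158152 and chr14:95158011-95158260 share bases. The counts above are thus of windows, many of them from these genes, and not of separate genes. The differences were 0.33 for TNRC6B, -0.064 for DGCR8 and 0.013 for DROSHA, and a relation between boxes and differences was not tested. A count of 5 or more was found in 0.319% of all windows, and TNRC6B is the highest of 16 windows. The windows of TNRC6B, TNRC6A and 1 of the 5 of DICER1 are shown in the direction of the gene, with CCAAT or ATTGG in capitals, for the members highest and lowest relative to the control. That of DICER1 was picked because it holds both a CCAAT box and a GC box, so it does not stand for the others. The DICER1 window at the outer end of the gene (chr14:95158011-95158260) holds 0 of either box.
TNRC6B, plus strand (chr22:40044584-40044833): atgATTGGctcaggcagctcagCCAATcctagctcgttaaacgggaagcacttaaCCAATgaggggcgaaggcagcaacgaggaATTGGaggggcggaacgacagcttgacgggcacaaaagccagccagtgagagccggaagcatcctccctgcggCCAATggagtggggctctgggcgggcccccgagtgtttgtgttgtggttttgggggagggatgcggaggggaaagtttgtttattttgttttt
DICER1, minus strand (chr14:95157530-95157779): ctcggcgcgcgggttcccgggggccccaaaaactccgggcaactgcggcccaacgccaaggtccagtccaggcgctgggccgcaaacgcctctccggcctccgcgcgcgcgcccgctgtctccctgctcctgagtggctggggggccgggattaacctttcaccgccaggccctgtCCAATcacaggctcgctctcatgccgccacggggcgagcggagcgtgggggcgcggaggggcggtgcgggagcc
TNRC6A, plus strand (chr16:24729401-24729650): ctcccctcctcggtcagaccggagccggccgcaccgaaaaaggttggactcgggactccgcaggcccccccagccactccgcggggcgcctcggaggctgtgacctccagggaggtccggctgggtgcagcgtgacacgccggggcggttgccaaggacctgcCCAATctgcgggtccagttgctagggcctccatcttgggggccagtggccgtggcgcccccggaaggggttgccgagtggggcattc
A match is a description of these letters, and binding of any factor was not measured.

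Leaving out each array in turn gave a range for each difference. Where the groups of 2 arrays do not overlap, the sign cannot change, so a kept sign adds nothing to the overlap given above. The difference of DICER1 ranged from 0.33 to 0.47, that of TNRC6B from 0.32 to 0.35 and that of TNRC6A from -0.12 to -0.093. AGO2 stayed above 0, at 0.016 to 0.097, as did AGO3 and AGO4. For the other 4 genes the sign changed, with values from -0.064 to 0.090 for DROSHA, from -0.14 to 0.0082 for DGCR8, from -0.077 to 0.053 for AGO1 and from -0.046 to 0.12 for TNRC6C. Over the 10 genes, the median spread between the silenced arrays was 0.10 and that between the control arrays 0.032 (SD), beside 0.12 and 0.052 over the probe sets with 1 symbol. In 8 of the 10 genes CASP2 siRNA replicate 2 lay below replicate 1, the exceptions being AGO1 and TNRC6C, beside 53.4% of the probe sets with 1 symbol and 74.7% of those above their median on every array.

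**Figure D3:**
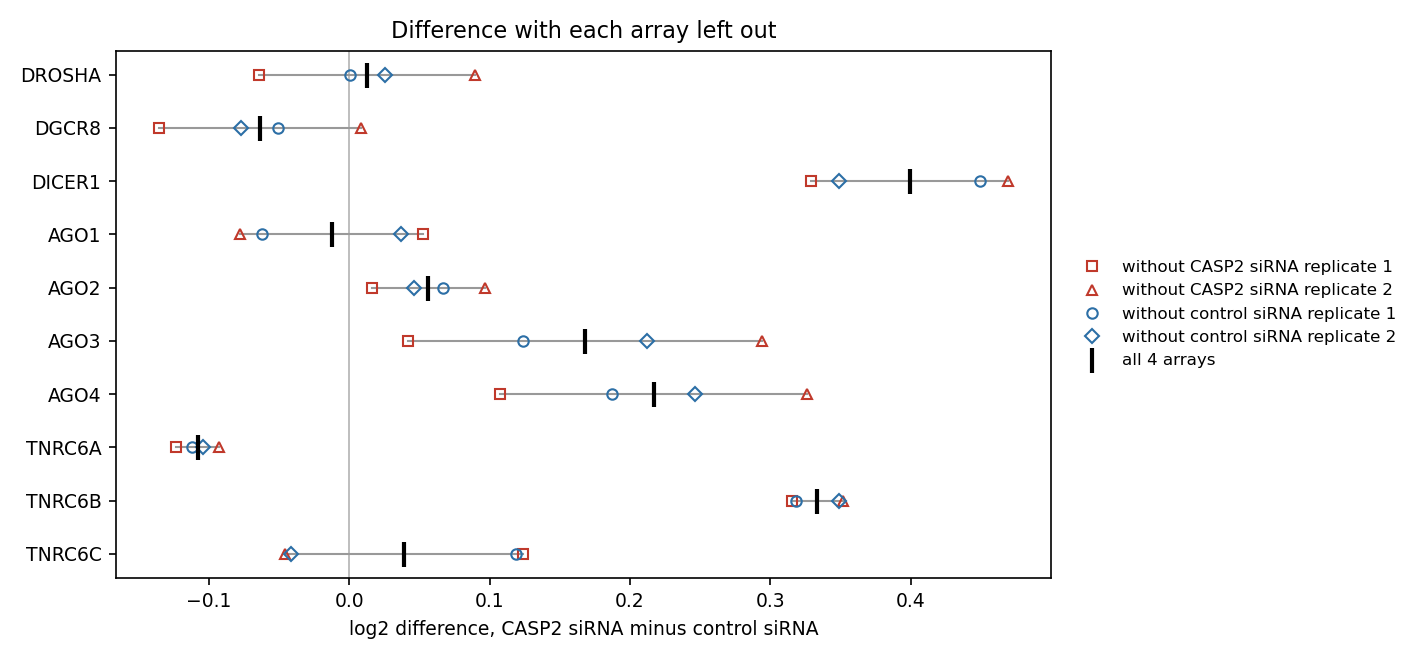
Log2 difference, CASP2 siRNA minus control siRNA (x axis), of the 10 genes (y axis) with all 4 arrays (black bars) and with 1 array left out (open symbols, joined by a grey line from the lowest to the highest value). DICER1 (0.33 to 0.47) and TNRC6B (0.32 to 0.35) stay right of 0 and TNRC6A (-0.12 to -0.093) left of it, while DROSHA, DGCR8, AGO1 and TNRC6C cross it.

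**Figure D4:**
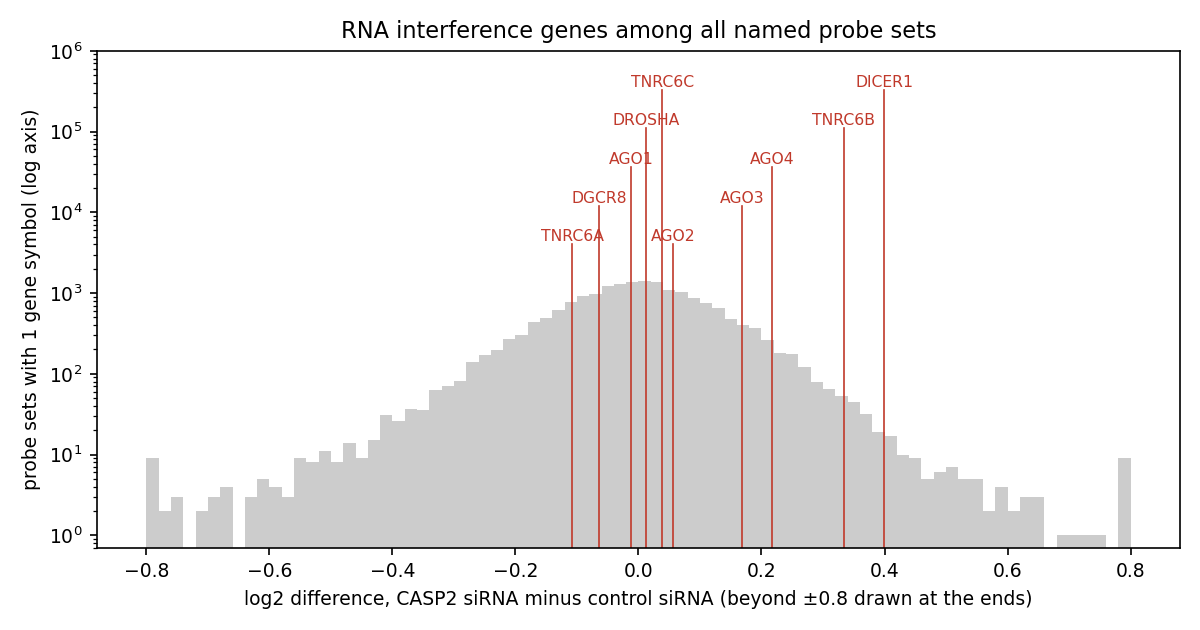
Number of probe sets with 1 gene symbol (y axis, log scale) by log2 difference, CASP2 siRNA minus control siRNA (x axis, bins of equal width, values beyond the ends drawn in the last bins), with a red line for each of the 10 genes. DICER1 at 0.40 and TNRC6B at 0.33 lie in the upper tail, and TNRC6A at -0.11 lies within the bulk.

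Genes around these 10 were taken from 7 lists, each gene by its brightest probe set. Among the lists is that of the 4 PIWI genes, taken as relatives of the Argonaute genes and not as their partners. Of the 80 listed genes, 76 had a probe set with 1 symbol. Of these, 0 had an adjusted p under 0.05 by limma, with an adjusted p of 0.9999 each, and 0 passed the thresholds of the study in either direction. Their median difference was -0.033, with 24 above 0 and 52 below, beside the median of -0.00076 over the probe sets with 1 symbol. It was -0.0040 without CASP2 siRNA replicate 2, -0.062 without CASP2 siRNA replicate 1 and -0.017 with quantile normalization. The silenced arrays were above both controls for 6 of them and below both for 24, beside the 14.6% and 16.3% given above. These backgrounds were not matched for signal level. CASP2 siRNA replicate 2 lay below replicate 1 in 74.7% of the 1-symbol probe sets above their median on every array, beside 53.4% of all. Whether the counts below 0, here and by list below, go with signal level was not tested.

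Around the processing enzymes, 0 of 8 Microprocessor cofactors passed, with KHSRP, an RNA-binding protein that aids processing of some microRNAs, at -0.12 (95% confidence interval -0.36 to 0.12) and SMAD4, a transducer of TGF-beta signals, at 0.082 (-0.20 to 0.37). Of 5 genes of hairpin export and Dicer binding, the largest differences were those of ADAR, which edits double-stranded RNA, at 0.15 (-0.11 to 0.41) and TARBP2, the Dicer partner TRBP, at -0.13 (-0.40 to 0.14). XPO5, the exportin of microRNA hairpins, had log2 values of 9.39 and 9.35 in silenced cells, against 9.39 and 9.31 in control cells, and was named after its value was seen. PRKRA, the Dicer partner PACT, likewise named, had 10.35 and 10.19 in silenced cells, against 10.18 and 10.33 in control cells, with overlap.

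Among 8 chaperones of RISC loading, which open an empty Argonaute for the small RNA duplex, 7 had a difference below 0 and the median was -0.065. DNAJA2, an HSP40 co-chaperone, had -0.21 (-0.46 to 0.052) and PTGES3, the HSP90 co-chaperone p23, -0.13 (-0.38 to 0.12). Of 16 partners and regulators of Argonaute, 7 lay above 0, with AJUBA, a LIM protein, at 0.24 (-0.077 to 0.56) and P4HA1, a subunit of the prolyl 4-hydroxylase that modifies AGO2, at 0.22 (-0.072 to 0.51).

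The effectors downstream of the TNRC6 proteins held the 2 genes of the 76 with an unadjusted p under 0.05 (0 higher and 2 lower, beside 1.08% and 1.12% of the probe sets with 1 symbol), both subunits of the PAN2-PAN3 deadenylase, which shortens the poly(A) tail after being recruited by TNRC6. PAN2, the nuclease, had log2 values of 6.90 and 6.91 with the CASP2 siRNA, against 7.20 and 7.33 with the control siRNA, a difference of -0.36 (95% confidence interval -0.62 to -0.10). PAN3, the subunit that binds TNRC6 proteins, had 8.83 and 8.43 in silenced cells, against 9.03 and 9.12 in control cells, a difference of -0.44 (-0.89 to -0.0035). The groups did not overlap for either gene, and each had an adjusted p of 0.9999 by limma. Without CASP2 siRNA replicate 1 the difference of PAN3 was -0.65, past the thresholds of the study, and without CASP2 siRNA replicate 2 it was -0.24. Of the 26 effectors of deadenylation and decapping, 19 had a difference below 0 and the median was -0.046. CNOT1, the scaffold of the CCR4-NOT deadenylase, which was named after its value was seen, had log2 values of 11.82 and 11.85 in silenced cells, against 11.77 and 11.81 in control cells.

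Of 9 genes of small RNA tailing and turnover, 7 lay below 0. LIN28B, which blocks the maturation of let-7, had log2 values of 5.64 and 4.99 in silenced cells, against 5.00 and 5.08 in control cells, so its difference of 0.27 rested on CASP2 siRNA replicate 1. Without replicate 2 it was 0.60, and without replicate 1 it was -0.053. The signal of LIN28B lay below the median of every array. DIS3L2, the exonuclease that degrades tailed precursors of let-7, had -0.25 (-0.52 to 0.023). The PIWI genes, the germline clade of the Argonaute family, had log2 values of 3.68 to 4.39 in silenced cells and 3.84 to 4.41 in control cells. Their signals lay below the lower quartile of every array for 3 of the 4 and above the median for 0. Within the PIWI genes the largest differences were those of PIWIL4 at 0.083 and PIWIL2 at -0.078, with overlap of the groups for all 4.

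**Figure D5:**
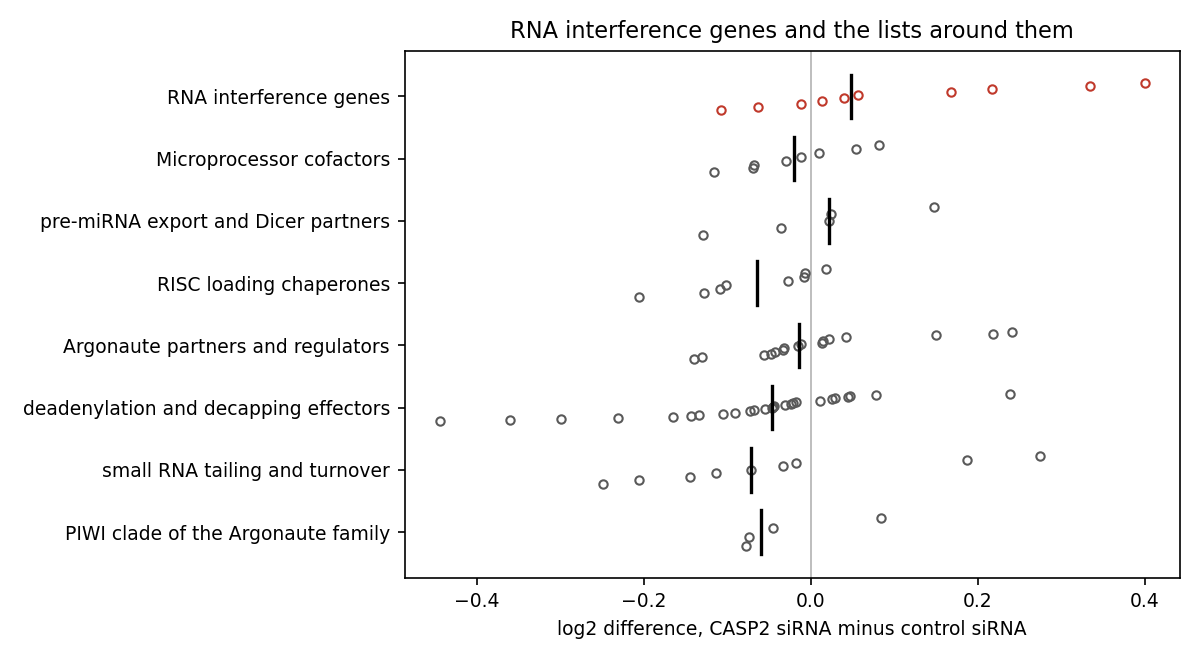
Log2 difference, CASP2 siRNA minus control siRNA (x axis), of the 10 RNA interference genes (red) and of the genes of 7 lists around them (grey), by list (y axis), with black bars for the list medians. The RNA interference genes have a median of 0.048 and reach 0.40, while the leftmost points are PAN3 at -0.44 and PAN2 at -0.36 among the deadenylation and decapping effectors.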

How the data were processed

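The authors hybridized labelled RNA of U87MG cells to Affymetrix Human Gene ST arrays and normalized them by RMA, with no version stated. The deposited table holds the log2 result of RMA for each probe set, and raw signals were not used. Because RMA gives every array the same probe distribution, a shift shared by most genes cannot be seen. Symbols came from the platform annotation, updated through RefSeq (GRCh38.p14) by gene ID. The 1388 probe sets that carry several symbols and the 11775 that carry none entered the fit and are not named. The fit was limma 3.58.1 in R 4.3.3, CASP2 siRNA minus control siRNA, two-sided, adjusted by Benjamini-Hochberg over all 32321 probe sets, with 2 residual and 2.47 prior degrees of freedom, and was checked on simulated data. Intervals are 95% intervals from this fit and cover only the spread between these 4 arrays, whose number limits the precision. An exact permutation test of 2 arrays against 2 was not run, as it cannot pass the threshold.

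The members and lists were chosen with earlier results of these data known. Named were all 10 members, CASP2, the 2 genes of each list with the largest difference in size, and any list gene past a threshold, others being marked as named after their values were seen. Some listed genes were not analysed here. Alternatives were other scalings, each array left out, the replicate number as a block, the methods' t-test with its minimum standard deviation, other variance priors and filters. Promoter and microRNA sequences are from RefSeq (GRCh38.p14), and no protein sequences were used.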

Additional observations from a re-analysis of the deposited data

How the results depend on the processing

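CASP2 kept its sign and stayed outside the adjusted threshold under every alternative in which it was computed, with adjusted p from 0.062 to 1. The count of members past the thresholds of the study stayed at 0 under each alternative where it was taken. So did the count of probe sets past an adjusted p of 0.05. CASP2 and the member count were not recorded in the fit of only probe sets with 1 gene symbol. Nor were they with arrays centred on the median of those probe sets or as a ratio of linear means. Over all probe sets, the thresholds of the study gave 107 higher and 117 lower, against 35 and 37 by the methods' t-test, 20 and 27 when only probe sets with 1 gene symbol were fitted (chosen after seeing the data), and, with each array left out in turn, 118 to 414 higher and 157 to 592 lower. The median difference of the 10 genes, 0.048, ranged from 0.042 to 0.093 with each array left out and was 0.028, 0.055 and 0.066 with arrays centred on their median, with quantile normalization and, chosen after seeing the data, with arrays centred on the median of probe sets with 1 symbol. Of 40 member differences recomputed on another scaling or as a ratio of linear means, 3 moved by more than the spread between replicates, all of TNRC6A, whose spread is small: -0.089 with quantile normalization, -0.13 with arrays centred on their median and -0.090 on that of probe sets with 1 symbol. AGO2 overlapped the controls with arrays centred on their median, AGO3 did not with quantile normalization or with arrays centred on the median of probe sets with 1 symbol, and DROSHA did not with quantile normalization. With an array left out, the lone array of its group is assumed to vary like the other group. The median of the pathway genes, -0.033, ranged from -0.062 to -0.0040 with each array left out and was -0.017 with quantile normalization and -0.053 with arrays centred on their median. The pathway lists gave 0 calls in either direction, and 0 to 1 in each with an array left out (PAN3 lower, LIN28B higher). With the replicate number as a block, 142 probe sets were higher and 160 lower past the thresholds of the study, and 0 passed the adjusted test. Samples of the same number deviated together with a correlation of 0.020 across probe sets, so the number was not taken as a pairing, and the block changed no call among the members. Depth is not defined for arrays. With 2 arrays a group, differences of the size of those of DROSHA, DGCR8, AGO1 and TNRC6C were within the spread between replicates. The differences of AGO2, AGO3 and AGO4 were 0.056, 0.17 and 0.22. Their CASP2 siRNA replicate 2 minus replicate 1 was at least as large in size, at -0.081, -0.25 and -0.22.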
